A study of Mus musculus with 43 samples.

Results

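Transcript levels of 10 secreted Wnt and BMP pathway genes were followed in mouse primary colon fibroblasts treated with the multi-kinase inhibitor regorafenib, with autogramin-2 (an inhibitor of autophagy that binds the cholesterol transfer protein Gramd1a), or with both. The 10 genes (Grem1, Rspo3, Rspo1, Wnt5a, Wnt2b, Bmp4, Bmp2, Sfrp1, Frzb and Nog) were taken by gene name from the 52636 rows of the fibroblast expression table, and each matched 1 row. Bulk RNA was measured in 43 libraries, 24 of colon organoids and 19 of fibroblasts, and the fibroblast libraries ask how stroma responds to regorafenib with and without a block of autophagy. The organoids were epithelial, either colonoids (Apc WT) or tumoroids (Apc deficient, from mice whose floxed Apc was recombined). Both kinds came from Vil-cre/ERT2 mice injected with tamoxifen. Of each kind, 3 lines were kept for 6 days with 5-FU at 1 µM, with regorafenib at 4 or 8 µM, or with DMSO alone. The fibroblasts were wild-type lines from C57B/6 mice, named M3, M3(2), M1(2) and M11. After replating, they were kept for 7 days in DMSO vehicle (Ve, n = 4), 4 µM regorafenib (R4, n = 4), 10 µM regorafenib (R10, n = 3), 1 µM autogramin-2 (A1, n = 4), or 4 µM regorafenib with 1 µM autogramin-2 (R4A1, n = 4). Line M11 had no R10 library. Lines M3 and M3(2) came from separate male mice aged 2 months. The animals behind M1(2) and M11 are not given in the sources used here. All lines were grown out of the colon tissue left after the crypts had been taken off, in serum-containing medium and without a sort for fibroblasts, so each library is 1 culture of 1 line and can hold other cell types.

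Wnt ligands bind Frizzled and Lrp receptors on epithelial and stromal cells, and R-spondins strengthen the signal by keeping these receptors at the cell surface through Lgr receptors and the ligases Rnf43 and Znrf3. Secreted frizzled-related proteins bind Wnts outside the cell. BMP ligands act through Smads, and Gremlin 1 and Noggin bind BMPs and hold them away from their receptors. In the colon, fibroblasts near the crypt base are known as a source of BMP antagonists and R-spondins, and those near the surface as a source of Wnt5a and BMPs.

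Values are CP20M, the read count of a gene scaled to 20000000 per library and rounded up, which is not divided by gene length. The spacing of the values put the depth at 7949971 to 12825922 reads per library (median 9039209), so that 1 read was worth 1.56 to 2.52 CP20M.

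The fibroblast label was checked against marker genes first. All 9 fibroblast markers passed the filter on low values described with the tests, with Col1a1 at 59382 to 112153 CP20M, Vim at 43644 to 81762 and Pdgfrb at 4241 to 9948 over the 19 libraries. The epithelial markers Epcam (at most 3 CP20M), Krt8 (at most 3) and Cdx2 (at most 2) were at or near 0, while Krt19 was at 162 to 1512. Markers of other stromal cells were present. The endothelial cadherin Cdh5 reached 400 to 8922 CP20M, the glial gene Sox10 reached 237 to 5510, and the macrophage gene Lyz2 reached 186 to 4214. The libraries of M3(2) stood apart by their endothelial markers and those of M11 by their glial markers. Over 4 pericyte markers the sum was 1259 to 4581 CP20M (mostly Notch3), and over 4 mesothelial markers 8 to 279. Summed over 3 glial markers (Sox10, Gfap and S100b), the Ve libraries held 9133 CP20M in M11, 2791 in M1(2), 901 in M3 and 488 in M3(2). In these bulk libraries, fewer cells of a type and less RNA per cell cannot be told apart.

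Grem1 was by far the most abundant of the 10 genes in Ve. Per kilobase of exon, its level was 16029 ± 6488 CP20M per kb (SD, n = 4), against 573 ± 443 for Sfrp1, 490 ± 77.2 for Wnt5a, 261 ± 149 for Bmp4, 120 ± 3.61 for Frzb and 94.6 ± 44.8 for Rspo3. The remaining 4 genes were scarce, with Nog at 18.1 ± 15.5 CP20M per kb, Wnt2b at 13.6 ± 3.9, Bmp2 at 7.31 ± 1.57 and Rspo1 at 0.258 ± 0.516. In this order, Grem1 and Sfrp1, Rspo3 and Nog, and Bmp2 and Rspo1 were neighbours whose 4 values did not overlap. The other neighbours overlapped, so Sfrp1, Wnt5a, Bmp4, Frzb and Rspo3 formed a run in which no gene was set apart from the next by more than the spread between lines. Within lines, Sfrp1 was above Wnt5a in 2 of 4 and Wnt5a above Bmp4 in 3 of 4.

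**Figure D1:**
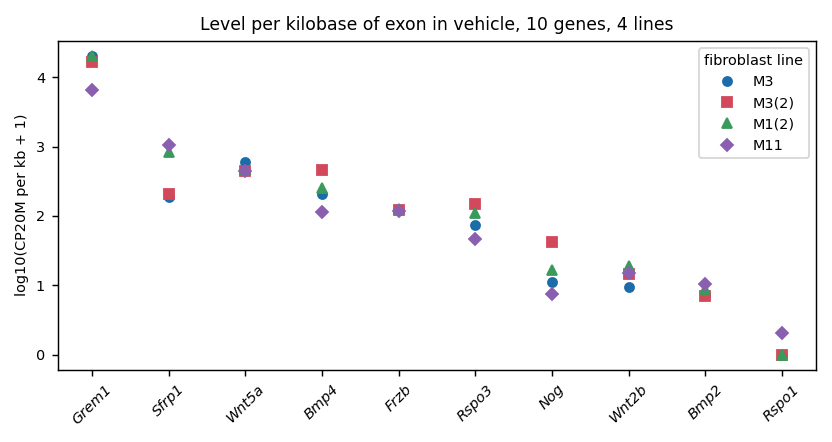
Level of the 10 genes in the vehicle libraries, as log10 of CP20M per kilobase of exon plus 1 (vertical axis), each point 1 fibroblast line. Grem1 lies between 6616 and 20560 CP20M per kb, above all values of the other 9 genes, and Rspo1 is at 0 in 3 of 4 lines.

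The genes lie apart in the genome (GRCm38, GENCODE M21), except that Grem1, Frzb and Bmp2 share chromosome 2, and Bmp4 and Wnt5a chromosome 14. Grem1 covers positions 113746164 to 113758646 and Frzb 80411970 to 80447625 of chromosome 2, both on the minus strand. Nog, which has 1 exon, lies on chromosome 11 at 89300638 to 89302332, minus strand. Sfrp1 is on chromosome 8 at 23411502 to 23449632, plus strand. Bmp4 (chromosome 14, 46383520 to 46390669, minus strand), Wnt5a (chromosome 14, 28504750 to 28527448, plus strand) and Rspo3 (chromosome 10, 29452416 to 29535867, minus strand) each overlap a predicted gene (Gm15217 and Gm15222, Gm2670, and Gm20276 and Gm48159). Whether reads were counted by strand is not given in the sources used here, so reads of these overlaps are uncertain.

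RefSeq promoters, 250 bases before to 50 after the start site, were found for 5 of the 10 genes (Grem1, Frzb, Bmp4, Wnt2b and Rspo1). Those of Grem1 and Frzb are shown because these genes were the most abundant member and a member lower with 10 µM regorafenib. Capitals mark CTTTG or its reverse complement CAAAG, the core bound by Tcf and Lef factors of the Wnt pathway, and CAGAC or GTCTG, a core bound by Smads. The 2 cores do not overlap each other in these windows.
Grem1, chr2:113758599-113758898, minus strand: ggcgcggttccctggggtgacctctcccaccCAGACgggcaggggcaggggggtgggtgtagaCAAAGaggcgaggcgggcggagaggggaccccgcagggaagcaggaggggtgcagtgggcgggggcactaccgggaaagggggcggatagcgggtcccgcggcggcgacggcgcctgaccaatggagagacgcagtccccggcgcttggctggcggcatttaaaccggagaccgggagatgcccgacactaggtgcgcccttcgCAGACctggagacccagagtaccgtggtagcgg
Frzb, chr2:80447347-80447646, minus strand: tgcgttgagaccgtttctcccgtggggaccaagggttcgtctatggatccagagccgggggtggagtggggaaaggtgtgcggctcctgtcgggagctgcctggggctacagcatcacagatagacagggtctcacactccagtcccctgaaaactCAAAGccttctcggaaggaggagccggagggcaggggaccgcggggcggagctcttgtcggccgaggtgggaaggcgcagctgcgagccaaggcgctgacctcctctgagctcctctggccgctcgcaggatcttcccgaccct
The Grem1 window holds 1 CTTTG core and 2 CAGAC cores, and the Frzb window 1 CTTTG core and no CAGAC core. Of 32851 RefSeq mouse promoters (GRCm38.p6) of 300 bases, 53.9% hold CTTTG and 49.6% hold CAGAC on either strand. TATAAA, in 13.6% of them, is in neither window. These matches describe the letters and were not tested for binding.

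Treatments were compared by limma on log2(CP20M + 20), in 1 fit over the 19 libraries, for the 11032 genes with at least 200 CP20M in at least 2 libraries. A gene was called changed at a Benjamini-Hochberg adjusted p under 0.05 and at least 1.5-fold on that scale. Of the 10 genes, 7 passed this filter (Grem1, Rspo3, Wnt5a, Bmp4, Sfrp1, Frzb and Nog). Nog passed only through regorafenib libraries, since none of its Ve and A1 values reached 200 CP20M, so its calls are also given at a filter of 20 CP20M, which 2 of its Ve libraries pass by themselves. Since each line was split over the treatments, the same fit with line as a block is given wherever it changes a call. Without the block, 1 of the 7 genes was called in R4 against Ve (1.02% of all genes tested), 2 in R10 against Ve (7.33%), none in A1 against Ve (0%) and 1 in R4A1 against Ve (1.66%). With the block these counts were 4 (7.22%), 4 (13.8%), 0 (0%) and 3 (6.99%). All 4 comparisons share the Ve libraries. An F test over all treatments called 2 of the 7 (Nog, adjusted p = 0.000602, and Frzb, adjusted p = 0.0137) and 5.17% of all genes, and with the block 5 of 7 and 16%. At the filter of 20 CP20M the adjusted p of Nog in this test was 0.000585. The values of Nog did not overlap between Ve and R4, R10 or R4A1, those of Frzb between Ve and R10 or R4A1, and those of Wnt5a between Ve and R10. Over all genes tested, the groups did not overlap for 6.41% in R4 against Ve, 28.3% in R10 against Ve and 10.2% in R4A1 against Ve.

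**Figure D2:**
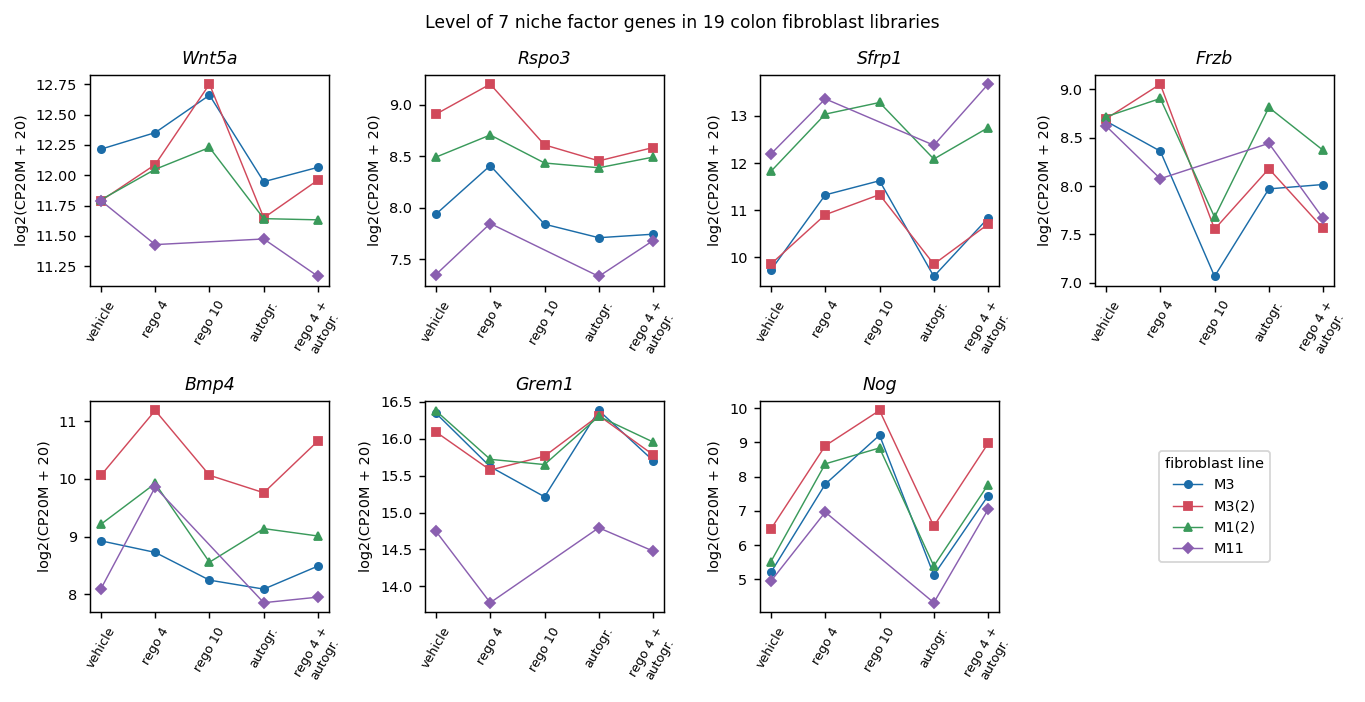
Level of the 7 genes that passed the filter, as log2(CP20M + 20), in vehicle (Ve), 4 and 10 µM regorafenib (rego), autogramin-2 (autogr.) and the combination. Each point is 1 library, and lines join the libraries of a fibroblast line (M11 has no 10 µM library). Nog and Sfrp1 sit higher in all regorafenib libraries of a line than in its vehicle library, and Grem1 lower.

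Wnt5a, a ligand that acts mostly without beta-catenin, held 4736 CP20M in M3, 3521 in M3(2), 3540 in M1(2) and 3523 in M11 under Ve. Under R10 it held 6457 in M3, 6878 in M3(2) and 4782 in M1(2), so the 3 R10 values lay above the 4 Ve values. The estimate was a log2 difference of 0.65 (SE 0.22, adjusted p = 0.0644), and with line as a block 0.53 (adjusted p = 0.00182), which is under 1.5-fold. It was therefore called in neither fit. Without the M11 libraries the difference was 0.61 in both fits, with adjusted p = 0.0173 and adjusted p = 0.00016 with the block, and past 1.5-fold. With the block and without M1(2) it was called as well (0.59, adjusted p = 0.0121). Under R4, Wnt5a was 5208, 4335, 4219 and 2736 CP20M in the same order of lines, with M11 below its own Ve library and the other 3 lines above theirs (log2 difference 0.08, adjusted p = 0.922).

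Wnt2b, a ligand of the beta-catenin branch, stayed between 36 and 91 CP20M in every library. It passed only a filter lowered to 20 CP20M, at which 16982 genes were tested. There its log2 difference from Ve was 0.15 in R4 (adjusted p = 0.821) and 0.34 in R10 (adjusted p = 0.336). With line as a block the R10 interval ran from -0.03 to 0.67, so an increase past 1.5-fold lies within it.

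Rspo3, the R-spondin that passed the filter, was 225 CP20M in M3, 461 in M3(2), 340 in M1(2) and 143 in M11 under Ve. Under R4 it was 320, 569, 398 and 210 CP20M in the same order, above Ve in each of the 4 lines, while the groups overlapped. The ratio of R4 to Ve ran from 1.17 to 1.47 by line. The log2 difference was 0.37 (SE 0.37, adjusted p = 0.734), and the block fit gave 0.37 (95% CI 0.16 to 0.58, adjusted p = 0.0146), under 1.5-fold. Under R10 it was 209, 371 and 326 CP20M in M3, M3(2) and M1(2), below Ve in all 3. Rspo1 was listed at 0 in 16 of 19 libraries and at 2, 3 and 4 CP20M in the others, each from 1 or 2 reads. Rspo2 and Rspo4, the other family members, reached at most 44 and 3 CP20M.

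Sfrp1, which encodes a secreted frizzled-related protein that binds Wnts, was higher in every regorafenib library than in the Ve library of its line. Its Ve level was 830 CP20M in M3, 908 in M3(2), 3609 in M1(2) and 4668 in M11. Under R4 the values were 2545, 1897, 8394 and 10511 CP20M in the same order. Under R10 they were 3138 in M3, 2556 in M3(2) and 9961 in M1(2). The rise within a line was 2.09 to 3.07 times under R4 and 2.76 to 3.78 times under R10, but the groups overlapped, because M3 and M3(2) held less Sfrp1 under regorafenib than M1(2) and M11 held in Ve. Without a line term the log2 difference was 1.26 in R4 (SE 0.87, adjusted p = 0.583) and 1.18 in R10 (SE 0.94, adjusted p = 0.471), neither called. With line as a block it was 1.26 (adjusted p = 2e-06) and 1.64 (adjusted p = 1.01e-07), both called, and these calls held without each line in turn. Of all genes, 4.58% were called higher with the block in R4 and 6.06% in R10.

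Frzb, which encodes another secreted Wnt-binding protein of the same family, went the other way at the higher dose. Its Ve values were the most even of all members, at 388 CP20M in M3, 395 in M3(2), 401 in M1(2) and 374 in M11. Under R10 it held 114 CP20M in M3, 168 in M3(2) and 185 in M1(2), all below the 4 Ve values. Frzb fell by 1.24 on the log2 scale in R10 (SE 0.25, adjusted p = 0.00358, lower in 3 of 3 lines). Without line M3 the difference was -1.06 and no longer called (adjusted p = 0.0779), while with line as a block it was -1.30 (adjusted p = 5.31e-05) and was called without each line. Under R4, Frzb held 309, 512, 460 and 250 CP20M in M3, M3(2), M1(2) and M11, on both sides of the Ve values (log2 difference -0.08, adjusted p = 0.932). Per kilobase, the ratio of Sfrp1 to Frzb had a median of 4.18 in Ve (1.58 to 9.25), 9.8 in R4 (2.74 to 31.1) and 20.4 in R10 (11.3 to 39.9). The R10 median lacks M11, the line with the most Sfrp1 in Ve and R4, so these medians cover different lines and do not measure the change within a line.

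Bmp4, a ligand made by stromal cells of the gut, was 467 CP20M in M3, 1048 in M3(2), 574 in M1(2) and 254 in M11 under Ve. Under R4 it was 404, 2306, 949 and 907 CP20M in the same order, so 3 lines were above their Ve library and M3 was below it. Under R10 it was 284 in M3, 1049 in M3(2) and 357 in M1(2), at or below Ve in M3 and M1(2) and level with it in M3(2). The log2 difference in R4 was 0.85 (SE 0.64, adjusted p = 0.633). It was called with line as a block (0.85, adjusted p = 0.0142), but not with the block and without M3(2) (0.75, adjusted p = 0.0764), without M1(2) (0.89, adjusted p = 0.061) or without M11 (0.54, adjusted p = 0.0873). In R10 it was -0.12 (adjusted p = 0.934).

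The endothelial markers moved with Bmp4 over the libraries as a whole, but not in every line. Summed over Pecam1, Cdh5, Tek, Vwf, Emcn and Lyve1, of which 5 of 6 passed the filter and Cdh5 was the most abundant, they held 1144 CP20M in M3, 8867 in M3(2), 1869 in M1(2) and 2488 in M11 under Ve. Under R4 the sum was 1718, 22178, 5161 and 6512 CP20M in the same order, above Ve in all 4 lines. Under R10 it was 1326, 5695 and 1541, under A1 910, 6402, 1858 and 1999, and under R4A1 2067, 14847, 1821 and 1914. In M3 the sum was above Ve in R4, R10 and R4A1, while Bmp4 was below Ve there (404, 284 and 340 CP20M, against 467). None of the 6 markers was at 0 in any library. After the mean of each line was subtracted, Bmp4 and this sum correlated at r = 0.87 over the 19 libraries, and at r = 0.89 without the subtraction, where libraries of a line share their cells. The 3 genes whose pattern within lines was most like that of Bmp4 were Myct1 (r = 0.92), Fli1 (r = 0.92) and Rasgrp3 (r = 0.91). Rspo3 correlated with the same sum at r = 0.61 within lines and r = 0.62 without the subtraction. The part of the endothelial markers in the levels of Bmp4 and Rspo3 was not tested. Bmp2 stayed between 3 and 73 CP20M. At the lowered filter its log2 difference from Ve was 0.14 in R4 (adjusted p = 0.928) and 0.07 in R10 (adjusted p = 0.944), with an interval under the block in R10 from -0.59 to 0.73.

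**Figure D3:**
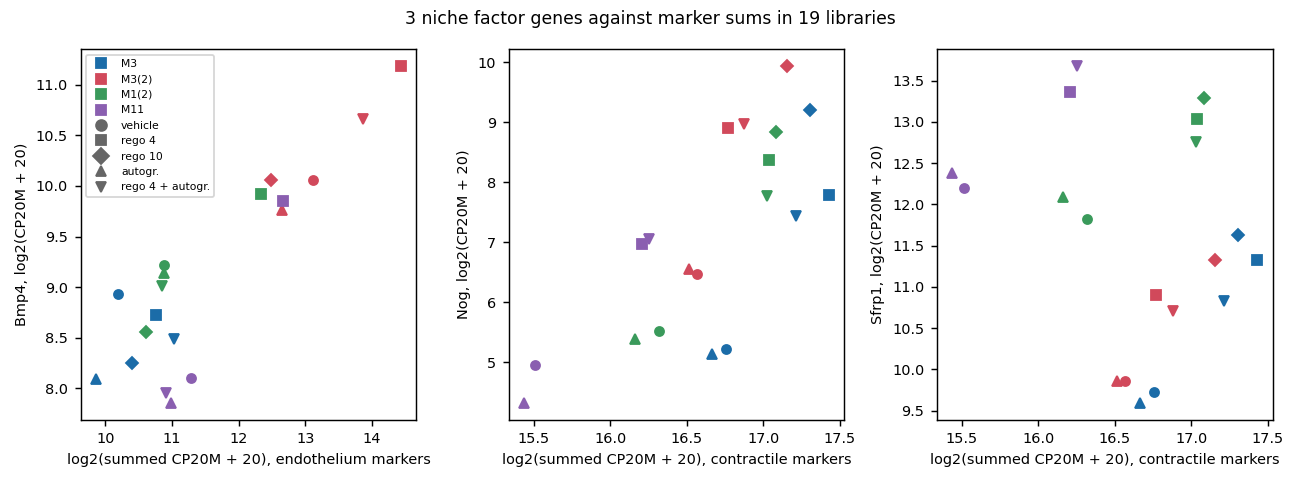
Level of Bmp4, Nog and Sfrp1 as log2(CP20M + 20) (vertical axes) against the summed level of endothelial or contractile markers on the same scale (horizontal axes), each point 1 of 19 libraries, colour by line and symbol by treatment. Bmp4 is highest in the 2 M3(2) libraries with the largest endothelial sums, 22178 and 14847 CP20M.

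Grem1, whose product binds and blocks BMPs, was lower in every regorafenib library than in the Ve library of its line. It held 83341 CP20M in M3, 69889 in M3(2), 85301 in M1(2) and 27443 in M11 under Ve. Under R4 the values were 50385, 48834, 54026 and 14016 CP20M in the same order. Under R10 they were 37985 in M3, 55646 in M3(2) and 51430 in M1(2). In M3, M3(2) and M1(2) every R4 and R10 value was below all 3 Ve values, while M11 held less Grem1 in Ve than those lines did under regorafenib, so the groups overlapped. R4 held 0.511 to 0.699 of the Ve level by line, and R10 held 0.456 to 0.796. The log2 difference without a line term was -0.72 in R4 (SE 0.49, adjusted p = 0.576) and -0.35 in R10 (SE 0.53, adjusted p = 0.734). With line as a block it was -0.72 (95% CI -0.94 to -0.49, adjusted p = 0.000146) and -0.74 (adjusted p = 0.000101), and both were called. Without the M11 libraries, Grem1 was called with no line term as well (-0.63 in R4, adjusted p = 0.0141, and -0.73 in R10, adjusted p = 0.00155). The R4 call with the block held without each line, and the R10 call was lost without M3 (-0.55, adjusted p = 0.0041), where the change was under 1.5-fold. Lower calls with the block made up 2.65% of all genes in R4 and 7.71% in R10. Grem1 remained the most abundant of the 10 genes per kilobase in all 19 libraries.

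Nog, which encodes the BMP antagonist Noggin, showed the largest change of the 7 genes. Under Ve it held 17 CP20M in M3, 69 in M3(2), 26 in M1(2) and 11 in M11, from 6 to 44 reads each. Under R4 it held 200, 459, 312 and 105 CP20M in the same order, and under R10 573, 958 and 438 in M3, M3(2) and M1(2). Every R4 and R10 value was above every Ve value, and R10 was above R4 in each of the 3 lines with both. By line, the level rose 6.65 to 12 times under R4 and 13.9 to 33.7 times under R10. On the log2(CP20M + 20) scale, which understates changes of low genes, Nog rose by 2.47 in R4 (SE 0.53, adjusted p = 0.0234) and by 3.79 in R10 (SE 0.57, adjusted p = 0.00046). With line as a block the values were 2.47 (adjusted p = 6.17e-08) and 3.50 (adjusted p = 6.13e-10). The R4 call without the block was lost without M3 (2.43, adjusted p = 0.275) and without M1(2) (2.34, adjusted p = 0.357). With the block it held without each line. At the filter of 20 CP20M the adjusted p was 0.0247 in R4 and 0.000463 in R10, and without a filter 0.0345 and 0.000591. The R4 call without the block was also lost with a pseudocount of 2 or 200 and in a fit of only the groups compared. Although Nog rose, its level per kilobase in R10 was still 23.7 to 48 times below that of Grem1, against 414 to 2003 times in Ve. Relative to Bmp4, the median ratio of Nog per kilobase was 0.0588 in Ve (0.0483 to 0.0873), 0.35 in R4 (0.154 to 0.657) and 1.63 in R10 (1.21 to 2.68, without M11).

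**Figure D4:**
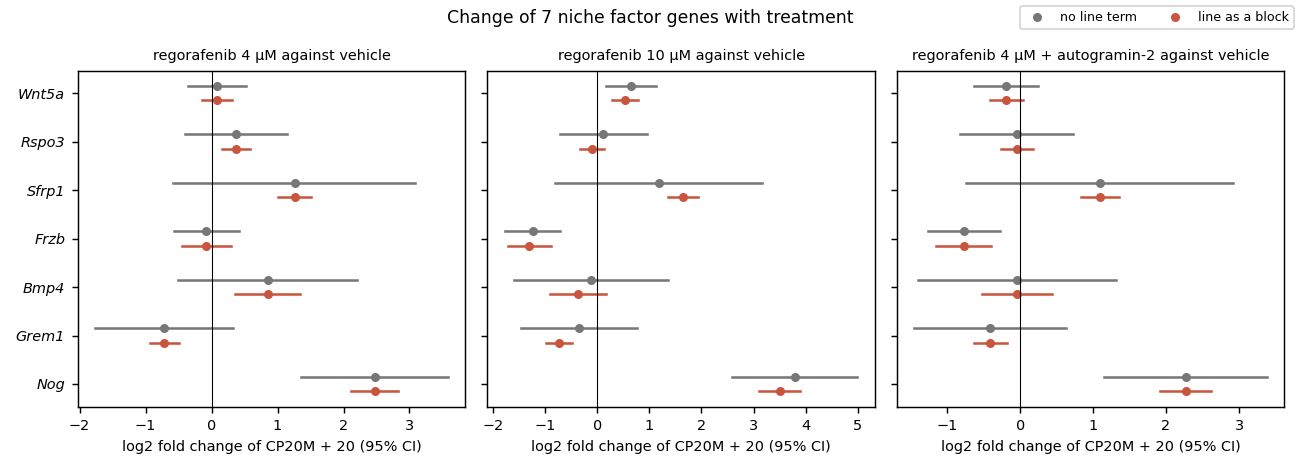
Log2 fold change of CP20M + 20 against vehicle with its 95% confidence interval (horizontal axis) for the 7 tested genes, in grey without a line term and in red with line as a block. Nog is at 2.47 in R4 and 3.79 in R10 without the block, and the intervals of Sfrp1 and Grem1 leave 0 in R4 and R10 only with the block.

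The sums of contractile, pericyte and macrophage markers also moved in the regorafenib libraries, where Nog and Sfrp1 rose. Under A1 the pericyte sum was above Ve in each line as well, while Nog was below Ve in 3 of 4. Summed over 7 contractile genes, of which 6 passed the filter and Acta2 was the most abundant, Ve held 110624 CP20M in M3, 97049 in M3(2), 81701 in M1(2) and 46679 in M11. R4 held 176848, 111524, 134548 and 75559 in the same order, and R10 held 161850, 145778 and 138990, each above the Ve library of its line. A1 held 103958, 93673, 73300 and 44350, and R4A1 152226, 120427, 133672 and 78097. None of these genes was at 0 in any library. Of the 6 tested, Myh11, a smooth muscle myosin, was called higher without the block in R4 (1.86, adjusted p = 0.00854, with 1.02% of all genes called) and in R10 (1.87, adjusted p = 0.00298, with 7.33%). With the block 3 of 6 were called in R4, all higher (4.58% of all genes called higher), 4 in R10, all higher (6.06%), and 3 in R4A1, all higher (6.99% called in either direction). Of the 4 pericyte markers 2 were tested. Notch3, a receptor of mural cells, was called higher without the block in R4 (1.36, adjusted p = 0.000623), R10 (2.08, adjusted p = 6.74e-06) and R4A1 (1.41, adjusted p = 0.000611). Of all genes, 1.02%, 7.33% and 1.66% were called in these comparisons. Cspg4 was at 0.11 in R4 (adjusted p = 0.946) and -0.79 in R10 (adjusted p = 0.238). The pericyte sum in M3, M3(2), M1(2) and M11 was 1300, 1259, 1374 and 2544 CP20M in Ve, 3501, 2626, 2232 and 4105 in R4, 1651, 1600, 1627 and 2689 in A1, and 3352, 2864, 2638 and 3603 in R4A1. In R10 it was 4581, 4363 and 3517 in the first 3 lines. Rgs5 and Kcnj8, defining pericyte genes, stayed at 38 and 39 CP20M or less. Over 9 macrophage and other immune markers, with Lyz2 the most abundant, the sum was 2639, 1196, 1947 and 6488 CP20M in Ve in M3, M3(2), M1(2) and M11. It was 1200, 751, 988 and 2134 in R4, 665, 611 and 629 in R10, 2070, 899, 2078 and 4143 in A1, and 732, 506, 540 and 738 in R4A1. Of these 9 markers 3 were tested. Without the block none was called in R4 (1.02% of all genes). Lyz2 was called lower in R10 (-2.60, adjusted p = 0.00806, with 7.33%) and R4A1 (-2.58, adjusted p = 0.0196, with 1.66%). With the block 2 were called lower in R4 (2.65% of all genes called lower), 2 in R10 (7.71%) and 3 in R4A1 (6.99% called in either direction). The remaining tested marker was called in neither fit in R4 or R10. C1qa, a defining macrophage gene that was not among those tested, averaged 87 CP20M in Ve and was at 0 in R10. Within lines, Nog correlated with the contractile sum at r = 0.93 and with the immune sum at r = -0.81, and Sfrp1 at r = 0.91 and r = -0.83, over 19 libraries that share lines and treatments. Grem1 correlated with the contractile sum at r = -0.82 and with the immune sum at r = 0.66 in the same way, and Frzb with the immune sum at r = 0.68. The sum of proliferation genes correlated with Frzb at r = 0.70, Sfrp1 at r = -0.71, Nog at r = -0.66 and Grem1 at r = 0.45 within lines. The part of these markers in the levels of Nog, Sfrp1, Grem1 and Frzb was not tested. The 10 proliferation genes were all called lower in R10 in both fits (median log2 difference -1.67, against -0.04 over all genes). Of all genes, 7.33% were called there without the block, and 7.71% were called lower with it. In R4A1 none of the 10 was called without the block (1.66% of all genes), and 8 were lower with it (6.99%, median -0.90). In R4 none was called without it (1.02%), and 1 was lower with it (2.65% of all genes called lower, median -0.49).

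The fibroblast markers moved in both directions. Of 9 tested, 2 were called lower in R10 without the block (7.33% of all genes called): Pdgfra, a receptor that regorafenib inhibits, at -3.03 (adjusted p = 0.0055), and Col3a1 at -1.43 (adjusted p = 0.015). With the block 3 were called lower (7.71% of all genes called lower), Col1a2 (-0.70, adjusted p = 0.000213) besides these, and Thy1 was called higher (1.36, adjusted p = 9.98e-05, with 6.06% of all genes called higher). In R4, Pdgfra was called lower without the block (-2.51, adjusted p = 0.0459, with 1.02% of all genes called). With it 3 were called higher (Dcn, Thy1 and Lum, with 4.58% of all genes called higher) and 3 lower (Pdgfra, Col1a2 and Col3a1, with 2.65% called lower). The median over the 9 was -0.18 in R4 and -0.38 in R10, against 0.00 and -0.04 over all genes. The part of these markers in the levels of the members was not tested.

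The 2 doses were then set against each other. No member was called between R10 and R4 without the block, where 0.145% of all genes were called and 9.97% did not overlap. Frzb was the 1 member without overlap, with all R10 values (114 to 185 CP20M) below all R4 values (250 to 512), and its log2 difference was -1.17 (adjusted p = 0.0708). With line as a block 3 of 7 were called (6.02% of all genes): Frzb (-1.23, adjusted p = 0.000893), Bmp4 (-1.21, adjusted p = 0.00494) and Nog (1.04, adjusted p = 0.00201). The Bmp4 call was lost without M1(2) (-1.12, adjusted p = 0.0602). Bmp4 at R10 was 0.703, 0.455 and 0.376 of its R4 level in M3, M3(2) and M1(2). Grem1 and Sfrp1 moved less between the doses, by -0.02 (adjusted p = 0.912) and 0.39 (adjusted p = 0.0541) with the block.

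None of the 7 genes was called with autogramin-2 alone. No gene of the 11032 was called in A1 against Ve in either fit by limma, although 120 had an unadjusted p under 0.05, and 823 with the block. Grem1 held 85571 CP20M in M3, 81538 in M3(2), 80935 in M1(2) and 28370 in M11 under A1, within 0.949 to 1.17 of Ve by line. Nog held 15, 74 and 22 CP20M in the first 3 lines, and 0 in M11, where 3 reads would be 7.56 CP20M. Bmp4, Wnt5a and Rspo3 were below Ve in 4 of 4 lines under A1, at 0.542 to 0.948, 0.802 to 0.906 and 0.718 to 0.986 of the Ve level, with overlapping groups, and Frzb was below Ve in 3 of 4 (0.595 to 1.07). With the block the 95% CI of the log2 difference ran from -0.85 to 0.13 for Bmp4, -0.45 to 0.01 for Wnt5a, -0.42 to 0.01 for Rspo3 and -0.70 to 0.05 for Frzb, so decreases past 1.5-fold lie within those of Bmp4 and Frzb.

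With both compounds, Nog and Sfrp1 were again above Ve, and Grem1 below it, in each line. Under R4A1, Nog was at 9.06 times its Ve level of 17 CP20M in M3, and held 482 CP20M in M3(2), 198 in M1(2) and 112 in M11, all above the Ve and A1 values. It rose by 2.27 on the log2 scale against Ve (SE 0.53, adjusted p = 0.0289, higher in 4 of 4 lines) and by 2.46 against A1 (adjusted p = 0.0324, 0.752% of all genes called and 5.69% without overlap). At the filter of 20 CP20M the adjusted p was 0.0313 and 0.0348, and without a filter 0.0466 and 0.0485. These calls were lost without M3 (adjusted p = 0.272 and 0.325) and without M1(2) (adjusted p = 0.261 and 0.385), but not with line as a block. Without the block, both were lost with a pseudocount of 200, and the call against Ve also with a pseudocount of 2. Sfrp1 held 1805 CP20M in M3, 1648 in M3(2), 6873 in M1(2) and 13053 in M11, above Ve in every line. With the block its difference was 1.09 against Ve (adjusted p = 9.95e-06) and 1.01 against A1 (adjusted p = 2.53e-05), and 2 of 7 members were called against A1 (5.44% of all genes). Grem1 held 53408 CP20M in M3, 56412 in M3(2), 63592 in M1(2) and 22788 in M11, below Ve in each line, at a difference of -0.41 that the block fit placed under 1.5-fold (adjusted p = 0.00952).

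Directly against R4, no member was called in R4A1 without the block (0.00906% of all genes), and none was without overlap (2.17% of all genes). With it 2 of 7 were called, both lower (1.41% of all genes were called lower and 1.43% in either direction). Bmp4 held 340 CP20M in M3, 1595 in M3(2), 496 in M1(2) and 228 in M11 under R4A1, below R4 in each line (-0.89, adjusted p = 0.0429). Frzb held 239, 169, 311 and 183 CP20M, also below R4 in each line (-0.70, adjusted p = 0.0416) and below all Ve values (-0.77, adjusted p = 0.00406 with the block). The Bmp4 and Frzb calls against R4 held only when M3 was the line left out. Without M3(2), M1(2) and M11 the differences were -1.02, -0.89 and -0.56 for Bmp4 (adjusted p = 0.0652, 0.26 and 0.208) and -0.43, -0.75 and -0.79 for Frzb (adjusted p = 0.159, 0.236 and 0.0841). Rspo3 was 194, 364, 340 and 185 CP20M in R4A1, below R4 in each line (-0.42, adjusted p = 0.0369 with the block, under 1.5-fold). The interaction, which asks whether autogramin-2 acted differently with and without regorafenib, was called for no gene in either fit (86 with an unadjusted p under 0.05, and 716 with the block). For Bmp4 it was estimated at -0.53 with a 95% CI of -2.45 to 1.39.

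Over the libraries of all treatments together, the 4 lines differed in each of the 7 members tested, with Frzb the weakest case. By limma's F test over the line terms, 7 of 7 passed, and 68.5% of all genes did, so differing by line was common. The adjusted p ran from 3.2e-12 for Sfrp1 to 0.0372 for Frzb. Without M11, 5 of 7 passed. In the Ve libraries alone, Frzb lay between 374 and 401 CP20M in the 4 lines, so untreated lines were nearly level in this gene. Line took up 79.3% of the variance of log2 Grem1 and 78.7% of that of Sfrp1, against 22.8% and 25.6% for treatment, where the shares overlap because the layout lacks 1 library. For Nog it was the other way, with 15.9% for line and 74.5% for treatment, and for Frzb treatment took up 72.6%. M11 had the lowest Grem1 and Rspo3 of the 4 lines under each of its treatments, and M3(2) the highest Bmp4 and Nog. The lines with high Sfrp1, M1(2) and M11, also held the larger glial sums, with r = 0.80 over 19 libraries and r = -0.10 after line means were subtracted. The part of glial cells in this was not tested.

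The wider pathway was counted from lists of ligands, receptors and targets, beside the share of all genes called (1.02% in R4, 7.33% in R10 and 1.66% in R4A1 without the block, and 7.22%, 13.8% and 6.99% with it). Of 19 Wnt ligands, 3 were abundant enough to test (Wnt5a, Wnt7a and Wnt9a), and none was called without the block in R4 or R10. With the block, Wnt7a was called higher in R4 (1.47, adjusted p = 0.00996) and Wnt9a higher in R10 (0.61, adjusted p = 0.000937). In that fit Wnt7a was at -0.02 in R10 (adjusted p = 0.972) and Wnt9a at 0.32 in R4 (adjusted p = 0.0514). Among 13 secreted Wnt antagonists 4 were tested, and in R10 Dkk3 rose (0.98, adjusted p = 0.0419) while Frzb fell. Of 14 Wnt receptors tested, Fzd5 was called higher in R10 (1.07, adjusted p = 3.46e-05), and with the block Fzd10 was called higher (0.93, adjusted p = 0.0433) and Lgr6, an R-spondin receptor, lower (-1.49, adjusted p = 2.36e-06). In R4 with the block Fzd6 (1.54, adjusted p = 0.00114) and Fzd10 (1.75, adjusted p = 0.000903) were called higher and Lgr6 lower (-0.97, adjusted p = 0.000179). Fzd6 was at 0.50 in R10 with the block (adjusted p = 0.223). Of 7 Wnt target and feedback genes tested, Myc fell in R10 (-0.83, adjusted p = 0.00186), and the feedback inhibitor Nkd2 was called higher with the block (1.63, adjusted p = 1.28e-07). In R4 none of the 7 was called without the block, and with it Nkd2 (0.94, adjusted p = 4.85e-05) and Sp5 (1.03, adjusted p = 0.0192) were called higher and none lower. Sp5 was at 0.03 in R10 with the block (adjusted p = 0.957). Axin2, the usual readout of beta-catenin signalling, stayed under the filter at 3 to 185 CP20M. The median change in R10 was 0.46 for the Wnt ligands, 0.16 for the receptors and -0.05 for the targets, against -0.04 over all genes.

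On the BMP side, more target genes than receptors were called. Of 9 BMP target genes tested, 1 was called higher in R4 without the block (1.02% of all genes called in either direction), and 6 with it (4.58% of all genes called higher). The median log2 difference was 0.97, against 0.00 over all genes. Id4 was called higher in R4 in both fits (1.36, adjusted p = 0.000257 without the block). With the block, the inhibitory Smad6 (1.48, adjusted p = 7.07e-06), the transcription factor Atoh8 (0.97, adjusted p = 5.72e-05) and Id1 (1.07, adjusted p = 0.000184) were called as well. In R10, Id4 (1.30, adjusted p = 0.000204) and Smad6 (1.55, adjusted p = 0.0169) were called without the block (7.33% of all genes), and 4 of 9 with it, all higher (6.06% of all genes called higher). In R4A1, none was called without the block (1.66% of all genes) and 2 with it (6.99% of all genes), Smad6 (1.23, adjusted p = 4.14e-05) and Id4 (0.61, adjusted p = 0.00638). Summed over the 10 target genes, Ve held 5820 CP20M in M3, 8470 in M3(2), 5094 in M1(2) and 4162 in M11, and R4 held 7982, 16718, 10269 and 7670. R10 held 9308, 11366 and 7751 in M3, M3(2) and M1(2), and R4A1 held 6122, 12888, 6777 and 6190 in the 4 lines. The sum was below R4 in M3(2) and M1(2) under R10, and in each line under R4A1. With the block, Id1 and Id2 were called lower in R10 than in R4 (6.02% of all genes called), and Id1, Id2 and Id4 lower in R4A1 than in R4 (1.41% of all genes called lower), and none of these without it. The sum was highest in M3(2), the line with the most endothelial transcript. With the block, 4 of 5 endothelial markers were called higher in R4 than in Ve (median difference 1.13), 5 of 5 lower in R10 than in R4 and 2 of 5 lower in R4A1 than in R4, and none of these without it. The part of endothelial cells in the BMP target genes was not tested. Of 10 BMP receptors and Smads tested, Smad9 alone was called, with the block (0.82 in R4, adjusted p = 0.00467, and 0.68 in R10, adjusted p = 0.0144).

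BMP antagonists moved in both directions. Of 8 tested, Nog and Fstl3 were called higher in R10 without the block, where 7.33% of all genes were called (Fstl3 0.62, adjusted p = 0.00382, and under 1.5-fold with the block). With the block 3 were called in R10, 1 higher and 2 lower (13.8% of all genes), and 4 in R4, 2 in each direction (7.22% of all genes). With the block, Fst, which encodes the activin and BMP binding protein follistatin, was called higher in R4 (1.70, adjusted p = 0.000673). In R10 Fst was at 0.08 with the block (adjusted p = 0.873). It was called lower in R10 than in R4 (-1.62, adjusted p = 0.00426, with 6.02% of all genes called). With the block, Grem1 and Bmper were called lower in R4 and R10 (Bmper -0.86, adjusted p = 8.33e-05, and -1.35, adjusted p = 7.1e-07). Of 14 BMP ligands 3 were tested, and Bmp6 was called higher in R4 beside Bmp4, with the block (0.96, adjusted p = 0.00331). Bmp6 was at 0.36 in R10 with the block (adjusted p = 0.221).

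**Figure D5:**
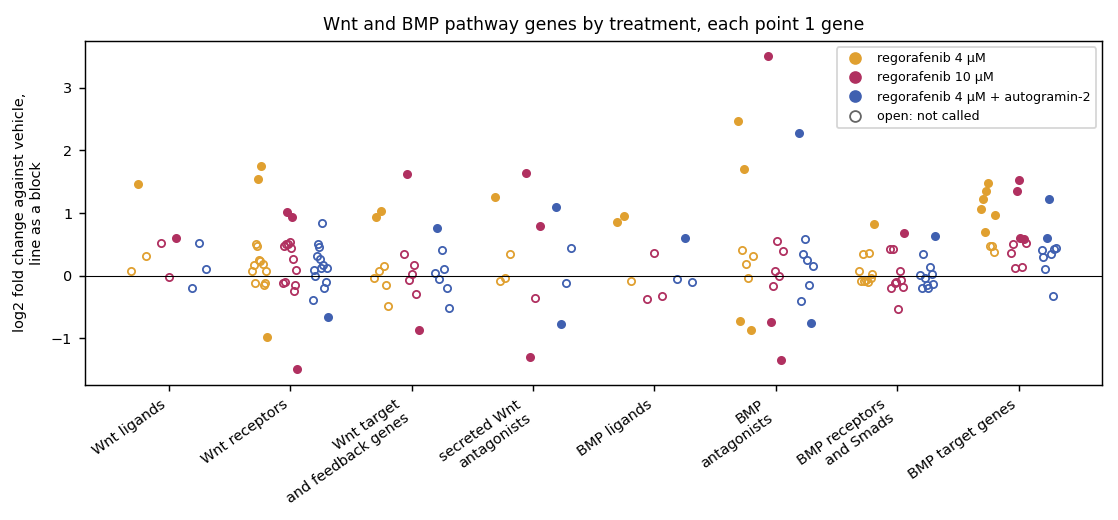
Log2 fold change of CP20M + 20 against vehicle with line as a block (vertical axis) for the tested genes of 8 pathway lists, each point 1 gene, filled where called. The highest points are Nog, among BMP antagonists, at 3.50 in R10 and 2.47 in R4, and all 6 filled points of BMP target genes in R4 lie above 0.

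The genes most like each member were found by correlation over the 19 libraries after line means were subtracted. For Nog they were Tgfb2, Enc1 and Ptprz1, each at r = 0.98, with 0.74, 0.95 and 0.94 before the subtraction. For Sfrp1 they were Igfbp2, Gm29491 and Tgfb2, each at r = 0.98, with 0.29, 0.65 and 0.66 before it. For Grem1 they were Xdh (r = 0.94), Ptgs1 (r = 0.92) and Il4ra (r = 0.92). Frzb was most like the matrix gene Dpt (r = 0.91), Tmem176a (r = 0.89) and Abcg1 (r = 0.88). Wnt5a was most like Arfgap1 (r = 0.92), Maged2 (r = 0.92) and Rcan1 (r = 0.91). Rspo3 was most like Bok (r = 0.88), Ifi27l2b (r = 0.83) and Serpine2 (r = 0.82). Tgfb2 was the 1 gene named for more than 1 member. These libraries share lines and treatments, so they are not independent points.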

How the data were processed

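Libraries of fibroblasts and organoids were sequenced as paired ends. The authors trimmed reads with Trimmomatic 0.36, aligned them to GRCm38 with STAR 2.5.3a and counted them per Ensembl gene with HTSeq 0.9.1, and the deposited signal is these counts scaled to 20000000 per library and rounded up (CP20M). For the fibroblasts the authors tested treatments in edgeR. Here limma 3.58.1 in R 4.3.3 (trend) was used on log2(CP20M + 20), because rounded values are not counts, so p-values come from another test than the study's. It was tested on simulated data, and the outcome is not given here. The p of differences are two-sided, and F tests take no direction. Without the block, p measure the spread between cultures of the same treatment, with cultures of a line counted as independent. With the block, and in the test of lines, p measure the spread left after line and treatment are fitted. Libraries of a line deviated together (mean r = 0.72 over 36 pairs, against -0.23 over 108 pairs of different lines), and each line comes from a single mouse in the study's account, so line pairs the samples. Depth was estimated from the spacing of the values. Replicates differed beyond counting noise (chi-square per gene at least 8.86 in 27 pairs). One library without a line in its title was placed by its library name. Genes named from each list were those called in a comparison, at most the 4 with the smallest p. One marker gene of the chosen lists is not reported here. Members and lists were chosen with earlier results of these data known. Figures were drawn with matplotlib 3.10.9.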

Additional observations from a re-analysis of the deposited data

Results flagged for a closer look

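Dixon's test on the 4 values of a group marked 6 of 38 groups. Chance marks about 1 in 20 where values are continuous and untied, which does not hold for scarce genes. Groups of the same line and gene are not independent. Grem1 was far lower in M11 than in the other lines under R4 (14016 CP20M, against 48834 to 54026) and under A1 (28370, against 80935 to 85571). Wnt5a under Ve was higher in M3 (4736) than in the others (3521 to 3540). Bmp2 under R4 was lower in M3 (8) than in the others (38 to 44). Rspo1 was at 2 CP20M in M11 under Ve and at 4 under R4A1, against 0 in the other lines, from 1 and 2 reads. With all other values at 0, any value above 0 is marked, so the marks of Rspo1 were fixed in advance.

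In the organoid table, which was scaled separately, Bmp4 in tumoroids averaged 118 CP20M under 4 µM and 147 under 8 µM regorafenib, and every value was above the highest vehicle value of 53. Bmp2 averaged 184 and 140 CP20M there, with every value above the vehicle maximum of 55. Nog averaged 20.7 CP20M under 8 µM regorafenib (lowest 17), against at most 6 in vehicle, while under 4 µM it was 6, 11 and 6, which overlapped vehicle (0, 5 and 6). Over 17153 organoid genes (at least 20 CP20M in at least 2 libraries), treated and vehicle tumoroids did not overlap for 29.2% under 4 µM and 29% under 8 µM, so groups of 3 that do not overlap were common. In colonoids the groups overlapped. Bmp2 was 113, 176 and 40 CP20M in vehicle in lines M41, M40 and M1, against 157, 143 and 84 under 4 µM and 36, 62 and 92 under 8 µM regorafenib. Bmp4 there was 37, 2 and 25 CP20M in vehicle, against 0, 23 and 89 under 4 µM and 212, 17 and 97 under 8 µM. Nog there was 19, 4 and 5 CP20M in vehicle, 0, 5 and 4 under 4 µM, and 52, 19 and 14 under 8 µM. Each group held 3 lines, and none of these differences was tested.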

How the results depend on the processing

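Over 76 results (counts of calls, and each tested member in each comparison), 1038 alternative values were computed. Line as a replicate block was planned. Combining it with leaving out each line was chosen after seeing the data. Outside the leave-one-out fits, single members kept their direction and their side of the threshold in 357 cases, gained a call in 14, lost one in 6 and turned direction in 5. The 4 lines differed, and some calls were lost when 1 line was left out. Scarce genes (Nog in vehicle, Bmp2, Wnt2b, Rspo1) rest on few reads. Count models (the authors' kind of test) were not run because the values are rounded. The cause of the changes below was not tested. The fit of only the groups compared and the leave-one-out fits also use fewer samples, and the part of this was not tested.

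With the replicate block, 4 members were called in R4 against Ve, 4 in R10 against Ve, 3 in R4A1 against Ve, 3 in R10 against R4, 2 in R4A1 against R4, 2 in R4A1 against A1 and 5 over any treatment. Over all genes, in the same order of comparisons, the block gave 797, 1519, 771, 664, 158, 600 and 1763 calls, against 113, 809, 183, 16, 1, 83 and 570 without it. With the block, the R10 difference of Rspo3 from Ve turned to -0.09, and between R10 and R4 Grem1 turned to -0.02 and Sfrp1 to 0.39, none of them called without it.

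With a pseudocount of 2, 0 members were called in R4 and R4A1 against Ve (Nog 3.16, adjusted p = 0.0807, and 2.94, adjusted p = 0.0762), and with 200, 0 in these and in R4A1 against A1. A fit of only the groups compared gave 0 members in R4 against Ve (Nog 2.47, adjusted p = 0.139). It gave 0 in R4A1 against Ve and against A1 because Nog, with 1 library of 200 CP20M or more there, did not pass the filter and was not tested. The same fit called 42 genes in R4 and 62 in R4A1 against Ve, 6 in R10 against R4, 0 in R4A1 against R4 and 20 in R4A1 against A1. A filter of 20 CP20M gave 278 genes in R4A1 against Ve, and TMM scaling 0 in R4A1 against R4. The interaction of Nog turned from -0.01 to 0.53 with a pseudocount of 2 and to 0.03 with TMM.

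Leaving out 1 line at a time, the members called ranged from 0 to 2 in R4, 1 to 4 in R10 and 0 to 1 in R4A1 against Ve, 0 to 1 in R10 against R4 and in R4A1 against A1, and 0 to 4 over any treatment. All genes called ranged from 28 to 317 in R4, 358 to 1118 in R10 and 32 to 359 in R4A1 against Ve, 0 to 45 in R10 against R4, 18 to 236 in R4A1 against A1, 145 to 926 over any treatment and 3980 to 7192 between lines, and were 0 in R4A1 against R4. Differences that turned direction in these fits, with or without the block, were uncalled: Frzb in R4 (-0.22 to 0.08), Rspo3 in R10 (-0.15 to 0.27) and R4A1 (-0.17 to 0.05), Bmp4 in R10 (-0.51 to 0.19) and R4A1 (-0.26 to 0.08), Grem1 (-0.14 to 0.68) and Sfrp1 (-0.39 to 0.46) between R10 and R4, Wnt5a in R4A1 against A1 (-0.07 to 0.14), and the interactions of Wnt5a (-0.09 to 0.02) and Nog (-0.25 to 0.15).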

Other observations

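Over the 24 organoid libraries (colonoids and tumoroids in equal number, with the 5-FU libraries included), 4 members were listed at 0 in most. Grem1 was at 0 in 22 libraries and reached at most 7 CP20M, Rspo3 was at 0 in 21 with at most 4, Frzb at 0 in 21 with at most 10, and Rspo1 at 0 in 23 with at most 4. Wnt5a and Sfrp1 reached at most 13 CP20M. Bmp2 had a median of 88 CP20M (16 to 287) in organoids, Bmp4 a median of 45 (0 to 212), Wnt2b a median of 11 (0 to 43) and Nog a median of 6.5 (0 to 52).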
